A study of Saccharomyces cerevisiae with 4 samples.

Results

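The proteasome is the protease that breaks down proteins marked with ubiquitin, and 34 genes of it were read on each array among 6336 genes: 33 subunits and the transcription factor RPN4, all found by their standard names among the names attached to the probes. The subunits comprised 7 of the alpha ring and 7 of the beta ring of the core particle, 10 of the base and 9 of the lid of the regulatory particle. RNA of *Saccharomyces cerevisiae* S288C, a haploid laboratory strain, was set on 2-colour oligonucleotide arrays against RNA of strains derived from it by adaptive laboratory evolution. TTY23 was selected from S288C at raised temperature, AT22 from S288C at low pH with acetic acid, and TAT12 from TTY23 at low pH with acetic acid, so that TAT12 carries the history of TTY23. All 4 strains were grown without those stresses, in defined medium with 2% glucose at pH 5.0 and 30 °C, and sampled in mid-exponential phase, so the comparisons ask what differed in the evolved strains at the ancestral condition. AT22 was compared with S288C, and TAT12 with S288C, with TTY23 and with AT22, each on 2 arrays with the dyes exchanged. Each evolved strain was picked from an evolved population, and a dye swap counted as 1 replicate, so n = 1 in every comparison and none had a test of its own.

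In the core particle, the alpha rings form the gate and the beta rings enclose the chamber in which PRE3, PUP1 and PRE2 cut peptide bonds. The base of the regulatory particle holds a ring of the ATPases RPT1 to RPT6, which unfold substrates and feed them inward, and the scaffolds RPN1 and RPN2. RPN10 and RPN13 bind ubiquitin chains, and the lid carries RPN11, which removes the chain as the substrate enters. RPN4 activates the genes of most subunits and is itself degraded by the proteasome, a feedback that is known to raise the whole set together when proteasome capacity falls short.

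Signal and direction limited what the arrays could show. Over the 8 arrays the median spot signal was 2.51 to 3.52 times the local background in Alexa555 and 1.22 to 3.09 times in Alexa647, and 13 to 21 of the 33 subunits lay above the empty spots in both dyes of an array. Of the subunits, 12 did so on all 8 arrays (PRE9, PRE6, PRE10, PRE3, PRE4, RPT2, RPN1, RPN2, RPN3, RPN5, RPN7 and RPN11) and 8 on none. After turning one array of each swap, both arrays of a swap correlated across all genes with r = -0.03 for AT22 over S288C, 0.09 for TAT12 over S288C, 0.13 for TAT12 over TTY23 and -0.17 for TAT12 over AT22. The second array of AT22 over S288C had no settled direction: against the second array of TAT12 over S288C, which has the same dye layout and the same reference strain, it gave r = -0.59 across all genes, whereas the first arrays of both comparisons gave 0.18. Values of AT22 over S288C are given as labelled, and with that array turned wherever this is said. Below, a ratio is the log2 ratio of the first strain over the second, averaged over both arrays, and a gene is said to be called where its z-score against the 100 genes nearest to it in intensity lies above 2 or below -2. The call rests on the spread between genes, not between replicates, and has no p-value.

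The subunits as a set lay close to the other genes in each comparison, with at most 0.016 on the log2 scale between their median and that of all genes. The median log2 ratio of the 33 subunits was 0.02 in AT22 over S288C, 0.00 in TAT12 over S288C, 0.01 in TAT12 over TTY23 and -0.01 in TAT12 over AT22, beside medians over all genes of 0.03, 0.02, 0.01 and -0.01. No subunit reached a log2 ratio of 1 or -1, and, as labelled, 26 of the 33 stayed within 0.5 on either side of 0 in all 4 comparisons. The 7 that went further were PRE9, PRE10, RPT2, RPN1, RPN2, RPN8 and RPN11, of which all but RPN8 were above background on all 8 arrays. Over the 4 comparisons as labelled, 9 of 132 subunit values were called (6.82%), which is 8 different subunits, beside 4.87% of the values of all genes. Of the 9 calls, 5 were above background on both arrays, 1 on 1 array and 3 on neither. A limma fit over the 4 swaps, which has 1 residual degree of freedom, called 0 of the 34 genes in any comparison after Benjamini-Hochberg adjustment at 0.05. It also called 0 of all 6336 genes in each comparison, so this result is not particular to the proteasome genes. At an unadjusted p of 0.05 it called RPN1 in AT22 over S288C and in TAT12 over S288C, RPN11 in TAT12 over TTY23 and 0 of them in TAT12 over AT22, beside 1.44%, 3.99%, 2.37% and 1.48% of all genes. TTY23 was in 1 swap only, so the fit matched TAT12 over TTY23 exactly and took no error from that swap. The residual was the gap between TAT12 over S288C measured directly and by way of AT22. For RPN11 these were -0.25 and -0.20 as labelled. The path by way of AT22 uses the array without a settled direction. These unadjusted p-values therefore cannot show a difference for RPN1 or RPN11.

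**Figure D1:**
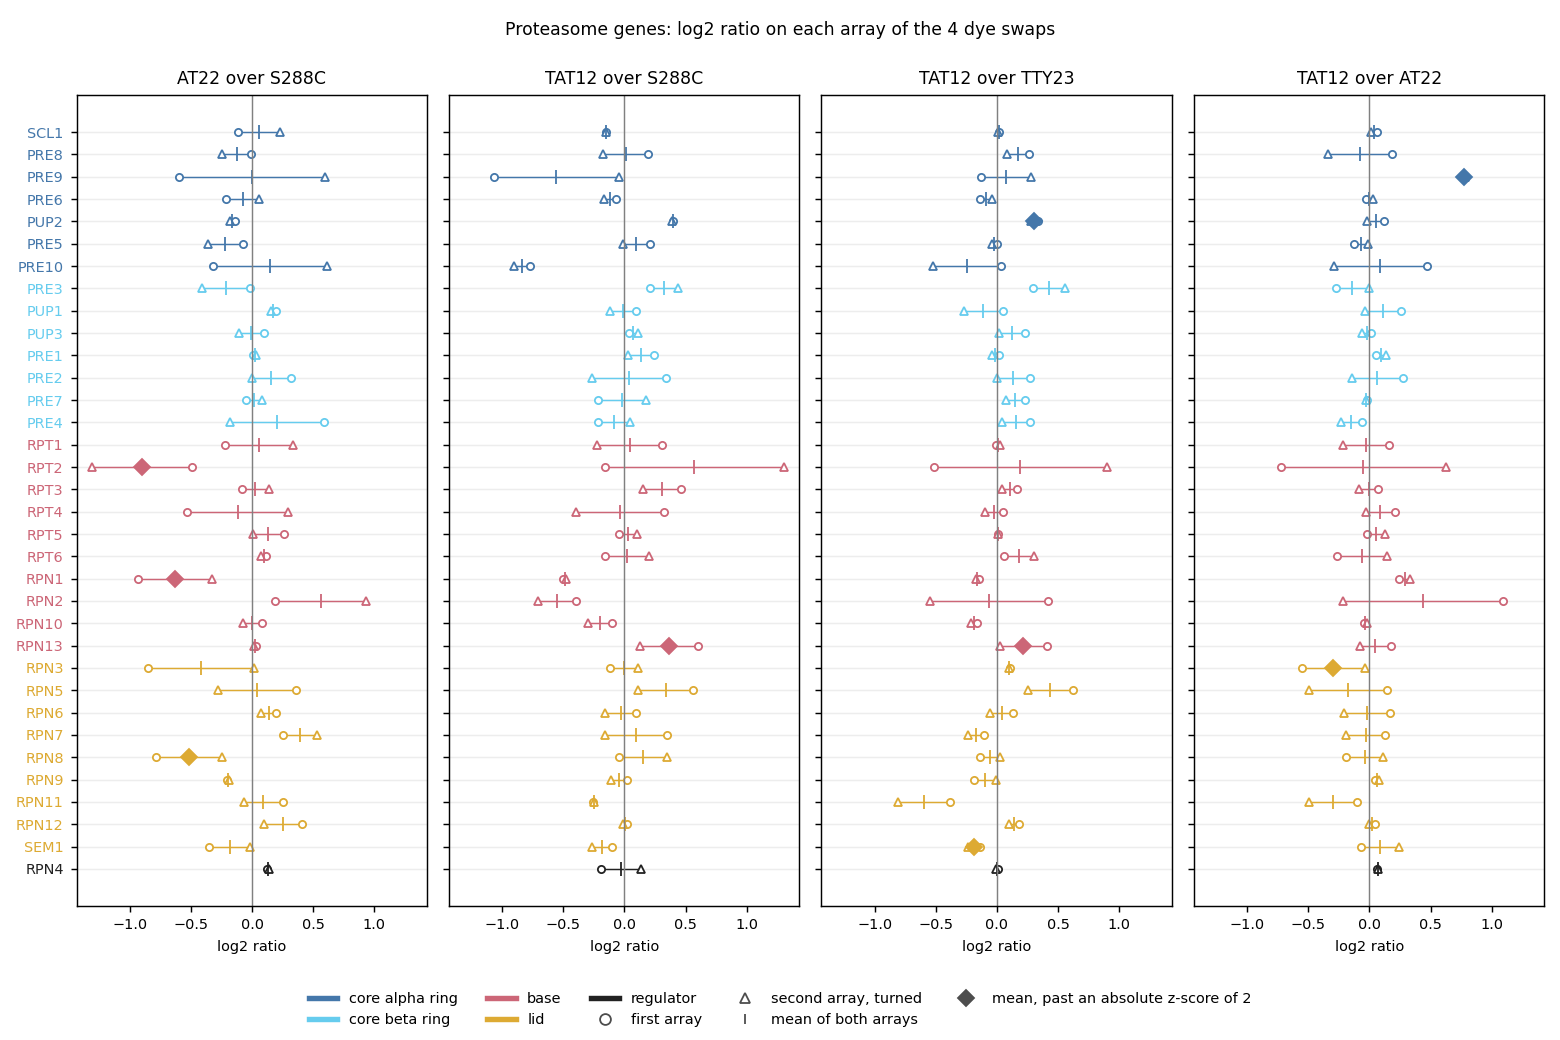
Log2 ratio (horizontal axis) of the 33 subunits and RPN4 (rows, coloured by subcomplex) in the 4 dye swaps. Circles are the first array, triangles the second array after turning by its labels, bars their mean, and filled diamonds a mean past an absolute z-score of 2. No mean lies beyond 1 or -1, and RPT2 has its 2 arrays on opposite sides of 0 in the 3 comparisons of TAT12.

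As labelled, subcomplex medians lay at most 0.20 apart within a comparison, and the arrays of a swap differed by up to 0.21 in the median of 1 subcomplex. The alpha ring had a median log2 ratio of -0.08 in AT22 over S288C, -0.12 in TAT12 over S288C, 0.01 in TAT12 over TTY23 and 0.03 in TAT12 over AT22. The beta ring gave 0.02, 0.04, 0.14 and -0.02 in the same order. The base gave 0.03, 0.03, 0.01 and 0.02, and the lid 0.04, -0.00, -0.06 and -0.03. With the second array of AT22 over S288C turned, the medians there were -0.14 for the alpha ring, 0.10 for the beta ring, -0.05 for the base and -0.01 for the lid, and the alpha and beta rings lay 0.24 apart. As labelled, the widest distance between subcomplexes was that of the beta ring and the lid in TAT12 over TTY23, where the beta ring medians were 0.23 and 0.02 on the first and second array and those of the lid -0.11 and -0.01. In that comparison 5 of the 7 beta ring genes were above 0 on both arrays, beside 24.7% of all genes, and 0 were below 0 on both, but 2 of the 7 were above background on both arrays. The lid had 3 of 9 above 0 on both and 4 below 0 on both, beside 24.7% and 25.3% of all genes.

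**Figure D2:**
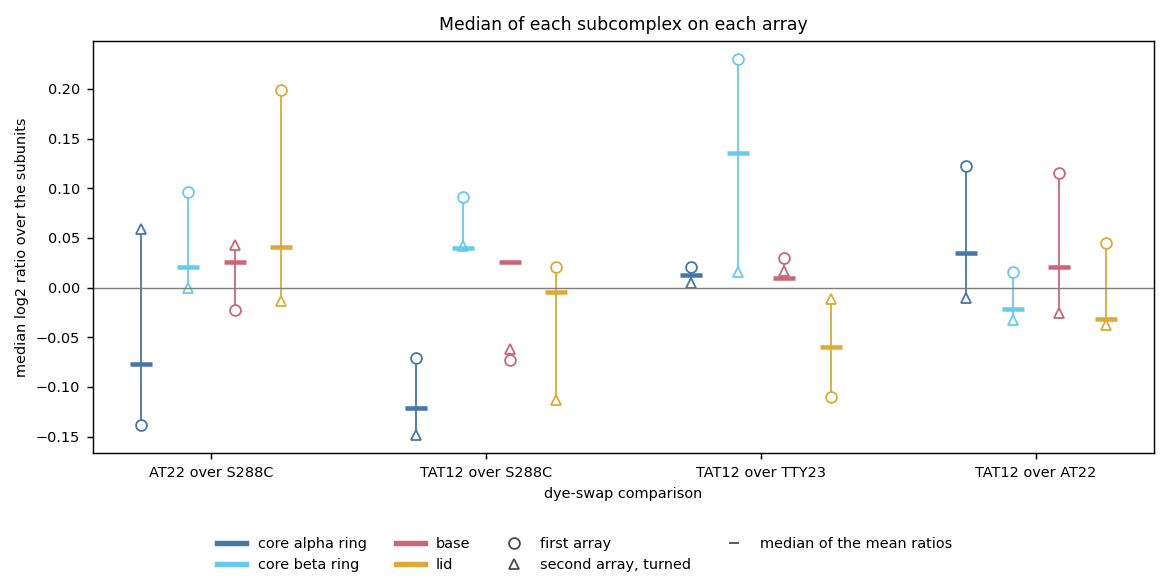
Median log2 ratio (vertical axis) over the genes of each subcomplex in the 4 comparisons (horizontal axis), with circles for the first array, triangles for the second array after turning, and horizontal bars for the median of the mean ratios. The medians of the mean ratios lie between -0.12 and 0.14, and the arrays of a swap often lie on both sides of 0. AT22 over S288C is drawn as labelled.

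The alpha ring held the subunits with the lowest and the highest ratios of the core. PRE10 was the lowest subunit of all in TAT12 over S288C, with log2 ratios of -0.77 on the first array and -0.90 on the second, a mean of -0.84. Both arrays put TAT12 below S288C for this gene, to 0.56 of its level. It was not called (z-score -1.35), since the 100 genes nearest in intensity had an SD of 0.61 around a mean of -0.00. In the other comparisons the arrays of PRE10 lay on opposite sides of 0, with means of 0.15 in AT22 over S288C (-0.47 with the second array turned), -0.25 in TAT12 over TTY23 and 0.09 in TAT12 over AT22.

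PRE9, the only alpha subunit that yeast can live without, was the highest subunit in TAT12 over AT22. Its log2 ratios there were 0.76 and 0.78, a mean of 0.77 or 1.71-fold, and it was called with a z-score of 2.28. Both arrays and all duplicate spots put TAT12 above AT22. It was the 1 subunit called up there, beside 3.38% of all genes called up. In TAT12 over S288C the arrays gave -1.07 and -0.04, a mean of -0.56, and in TAT12 over TTY23 -0.13 and 0.28. In AT22 over S288C they gave -0.59 and 0.60 as labelled, a mean of 0.00, and -0.60 with the second array turned. These paths did not close: TAT12 over S288C came to 0.77 by way of AT22 as labelled and to 0.18 with that array turned, against -0.56 measured directly.

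PUP2, another alpha subunit, was called up in TAT12 over TTY23, with log2 ratios of 0.34 and 0.27 and a mean of 0.31 (z-score 2.30). Its arrays lay closer together than those of most subunits, and both put TAT12 above TTY23. Both also put TAT12 above S288C, at 0.40 and 0.39, without a call (z-score 1.61). In TAT12 over AT22 they gave 0.12 and -0.02, and in AT22 over S288C -0.14 and -0.18, so that AT22 as labelled lay on the other side of S288C from TAT12. With the array turned, the mean of AT22 over S288C was 0.02. The remaining alpha genes SCL1, PRE8, PRE6 and PRE5 lay between -0.22 (PRE5, AT22 over S288C) and 0.17 (PRE8, TAT12 over TTY23), with no call. With the array turned, their values in AT22 over S288C lay between -0.17 (SCL1) and 0.14 (PRE5), so PRE5 changed side.

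None of the 3 catalytic beta subunits was called. PRE3, which carries the caspase-like site, had both arrays on the same side of 0 in all 4 comparisons. As labelled this held for 2 of the 33 subunits, the other being RPN1. The share of all genes for which it held was not taken. In single comparisons 42.1% to 52.9% of all genes had both arrays on the same side. For PRE3, TAT12 was above TTY23 at 0.29 and 0.55 (mean 0.42, z-score 1.35) and above S288C at 0.21 and 0.44 (mean 0.32). It was below AT22 at -0.27 and -0.01, with the duplicate spots of the second array at -0.02 and 0.01. AT22 over S288C gave -0.02 and -0.41 as labelled and a mean of 0.20 with the array turned, so the side of S288C on which AT22 lies for PRE3 depends on that array. PRE2, the chymotrypsin-like subunit, gave means of 0.16, 0.04, 0.14 and 0.06 in AT22 over S288C, TAT12 over S288C, TAT12 over TTY23 and TAT12 over AT22. Its first arrays lay between 0.27 and 0.34 and its second arrays between -0.26 and 0.00, so the small positive means came from the first arrays. PUP1, the trypsin-like subunit, was above background on no array and its means ran from -0.11 to 0.17, the highest being that of AT22 over S288C as labelled, which was 0.02 with the array turned. PUP3, PRE1, PRE7 and PRE4 lay between -0.15 and 0.20, both ends being PRE4, whose value in AT22 over S288C was 0.20 as labelled and 0.39 with the array turned.

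In the base, the largest ratio was that of the ATPase RPT2, which takes part in opening the gate of the core. In AT22 over S288C it was called down, with log2 ratios of -0.49 and -1.31 as labelled and a mean of -0.90, or 0.54 of the level in S288C (z-score -3.58). With the second array turned the mean was 0.41 and the call was lost. In the comparisons of TAT12 with S288C, TTY23 and AT22 the first arrays gave -0.16, -0.52 and -0.73 and the second arrays 1.30, 0.90 and 0.62. The arrays of each swap thus lay on opposite sides of 0, and the means were 0.57, 0.19 and -0.05. By way of AT22, TAT12 over S288C for RPT2 came to -0.95 as labelled and 0.36 with the array turned, against 0.57 directly. Read by dye instead of strain, RPT2 was brighter in Alexa555 on 7 of the 8 arrays, and the exception was the second array of AT22 over S288C, where it was brighter in Alexa647 by 1.31 on the log2 scale. Over all genes, 1001 (15.8%) had the same dye brighter on the other 7 arrays, and in 863 of these the opposite dye was brighter on that array. Among the subunits 4 (12.1%) did so, PUP1, RPT2, RPN6 and RPN8, and all 4 had the opposite dye brighter on that array. The part of the dye in the ratios of RPT2 and RPN8 in AT22 over S288C was not tested.

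RPN1 and RPN2 are the large scaffolds of the base. RPN1 was called down in AT22 over S288C, at -0.94 and -0.33 with a mean of -0.63 (z-score -2.02). Both arrays as labelled put AT22 below S288C, and with the second array turned the mean was -0.30 with no call. In TAT12 over S288C RPN1 gave -0.50 and -0.48, and in TAT12 over TTY23 -0.15 and -0.17, both without a call. In TAT12 over AT22 it gave 0.25 and 0.34 (mean 0.29). By way of AT22 the ratio of TAT12 over S288C for RPN1 came to -0.34 as labelled and to -0.01 with the array turned, against -0.49 measured directly. RPN2 had its mean on the other side of 0 from RPN1 only in AT22 over S288C as labelled. With that array turned, and in the other comparisons, the means of both genes lay on the same side. It was the highest subunit in AT22 over S288C, at 0.19 and 0.93 (mean 0.56, z-score 1.48), but -0.37 with the array turned. In TAT12 over S288C it gave -0.40 and -0.71 (mean -0.55), and in TAT12 over TTY23 and TAT12 over AT22 its arrays lay on opposite sides of 0, the latter at 1.09 and -0.22.

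PRE9, PRE10, RPN1 and RPN2 thus all had both arrays below 0 in TAT12 over S288C, with means from -0.84 to -0.49, and none of these was called. The second array of PRE9 was at -0.04, with duplicate spots at -0.12 and 0.03. Both arrays were below 0 there for 9 of the 33 subunits (27.3%), beside 24.8% of all genes. The nearest genes in intensity to these 4 had SDs from 0.49 to 0.61 there, against a median of 0.22 over the neighbourhoods of all subunits. In each comparison these 4 genes lay among the 457 brightest of the 6336, where the spread of ratios between genes was wide. For PRE10, TAT12 over S288C came to 0.24 by way of AT22 as labelled, and to -0.38 with the array turned, against -0.84 directly. For RPN2 it came to 1.00 and 0.06, against -0.55 directly.

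**Figure D3:**
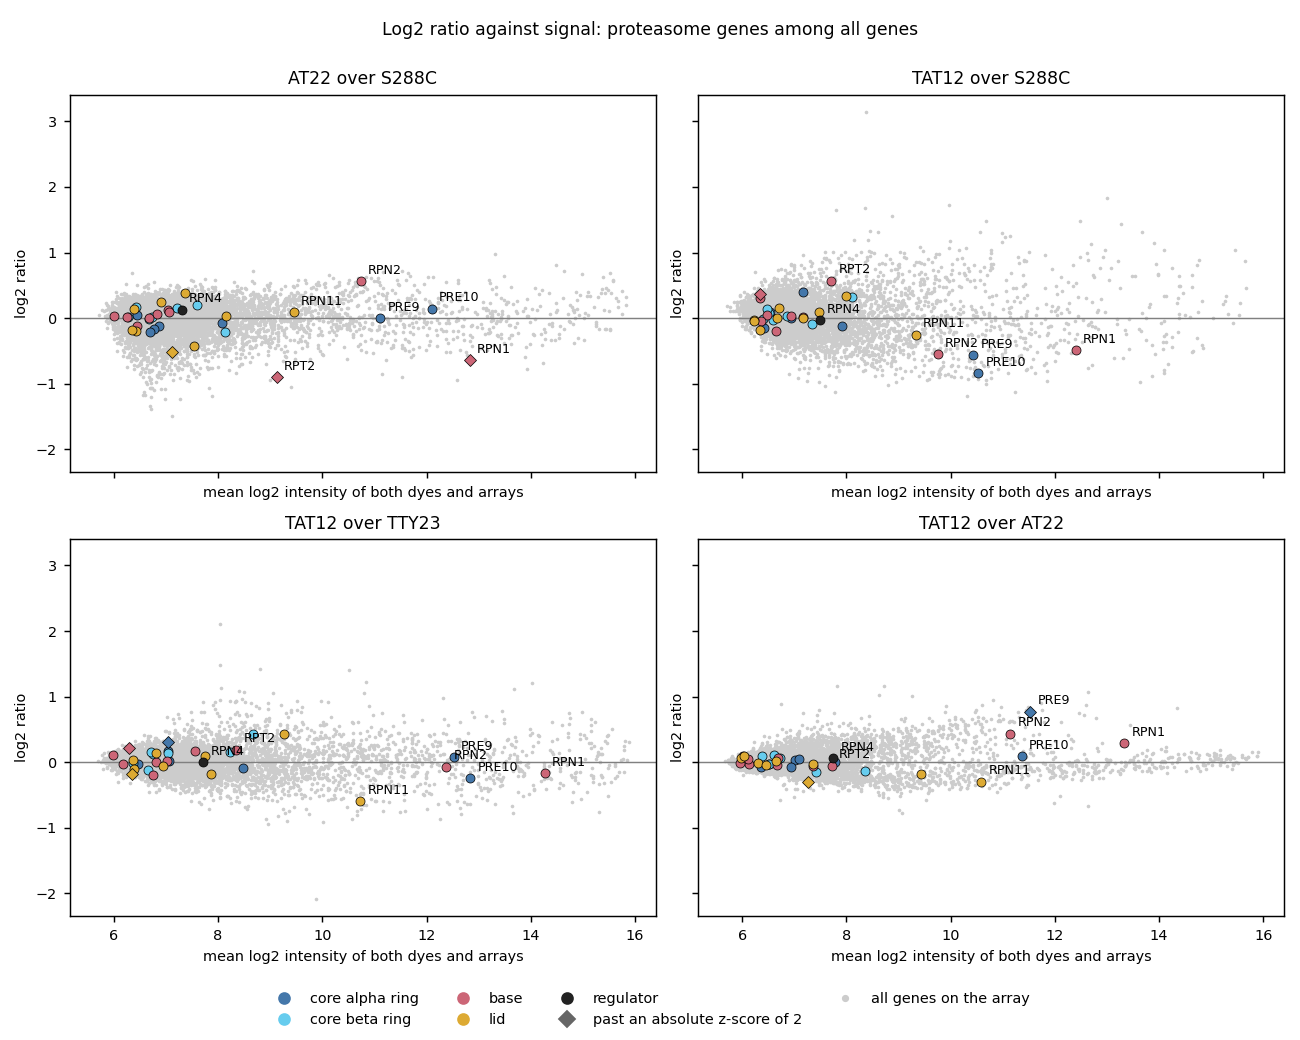
Log2 ratio (vertical axis) against mean log2 intensity over both dyes and arrays (horizontal axis) for all 6336 genes (grey) and the proteasome genes (coloured by subcomplex, diamonds past an absolute z-score of 2) in each comparison. PRE9, PRE10, RPN1 and RPN2 lie in the sparse bright range with wide ratios, where PRE10 at -0.84 in TAT12 over S288C is not called, while RPN4 lies near 0 in each panel.

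The ubiquitin receptor RPN13 was called up in 2 comparisons, the only subunit with more than 1 call. Its log2 ratios were 0.60 and 0.13 in TAT12 over S288C (mean 0.36, z-score 2.21) and 0.41 and 0.03 in TAT12 over TTY23 (mean 0.22, z-score 2.13). The first arrays carried most of both values, TAT12 is common to both comparisons, and RPN13 was above background on no array. The shares of all genes called up were 3.11% and 3.08%. RPT4, an ATPase with a dim probe, gave means between -0.12 and 0.09 as labelled, and with the second array turned it was called down in AT22 over S288C at -0.41 (z-score -3.42) while above background on no array. A second probe of RPT4, above background on both arrays of that swap, gave -0.04 with the array turned (z-score -0.25) and no call. RPT1, RPT3, RPT5, RPT6 and RPN10 lay between -0.20 (RPN10) and 0.30 (RPT3), both in TAT12 over S288C, with no call, though RPT1 gave -0.28 in AT22 over S288C with the array turned.

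In the lid, the deubiquitinase RPN11 was the lowest subunit in both TAT12 over TTY23 and TAT12 over AT22. Against TTY23 its log2 ratios were -0.38 and -0.81, a mean of -0.60 or 0.66 of the level in TTY23 (z-score -1.61). Against AT22 they were -0.10 and -0.49 (mean -0.30), and against S288C -0.25 and -0.25. All 6 arrays that held TAT12 put it below the other strain, though TAT12 is common to these comparisons, which are not independent, and none was called. AT22 over S288C gave 0.25 and -0.07, a mean of 0.09, or 0.16 with the second array turned. RPN5, a scaffold of the lid, was the highest subunit in TAT12 over TTY23, at 0.62 and 0.25 (mean 0.44, z-score 1.41). It was also above 0 on both arrays of TAT12 over S288C, at 0.56 and 0.11.

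The calls in the lid were single genes in different comparisons, all of them down. AT22 over S288C, TAT12 over AT22 and TAT12 over TTY23 had 1 each, beside 4.09%, 0.9% and 2.43% of all genes called down. RPN8, the partner of RPN11, was called in AT22 over S288C at -0.78 and -0.24 as labelled (mean -0.51, z-score -2.13). With the array turned the mean was -0.27 and the call was lost. RPN3 was called in TAT12 over AT22 at -0.55 and -0.04 (mean -0.29, z-score -2.12), a value that rested on the first array. By way of AT22, TAT12 over S288C for RPN3 came to -0.71 as labelled and -0.73 with the array turned, against -0.00 directly. For RPN8 it came to -0.55 and -0.31, against 0.15 directly. SEM1, the smallest lid subunit, was called in TAT12 over TTY23 at -0.14 and -0.24 (mean -0.19, z-score -2.20) and was above background on no array. RPN6, RPN7, RPN9 and RPN12 lay between -0.20 (RPN9) and 0.39 (RPN7, z-score 1.93), both in AT22 over S288C as labelled. With the array turned RPN9 was at -0.01 and RPN7 at -0.14, so neither end held.

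By comparison, the subunits called were 0 up and 3 down in AT22 over S288C, where 0.537% of all genes were called up and 4.09% down. With the second array turned they were 0 up and 1 down, beside 1.2% and 2.83%. TAT12 over S288C had 1 up and 0 down, beside 3.11% and 1.94%, TAT12 over TTY23 2 up and 1 down, beside 3.08% and 2.43%, and TAT12 over AT22 1 up and 1 down, beside 3.38% and 0.9%. With 33 subunits, 1 call is 3.03% of them, so shares cannot be read more finely than that. In TAT12 over TTY23 15 subunits (45.5%) were above 0 on both arrays, beside 24.7% of all genes. Both arrays lay on the same side of 0 for 23 of the 33 there (69.7%), beside 50.0% of all genes. The shares were 54.5% beside 52.9% in AT22 over S288C as labelled, 45.5% beside 47.1% with the array turned, 48.5% beside 50.2% in TAT12 over S288C and 39.4% beside 42.1% in TAT12 over AT22.

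TTY23 was not hybridised against S288C, and its ratio was taken as TAT12 over S288C minus TAT12 over TTY23, in which noise of both swaps adds. The median of the subunits was -0.03, beside 0.02 over all genes, and 0 subunits were called in either direction, beside 3% of all genes up and 2.16% down. PRE9 (-0.63), PRE10 (-0.59), RPN2 (-0.49) and RPN1 (-0.33) were at the low end, each below 0 by both array pairs. This held for 12 of the 33 subunits (36.4%), beside 26.3% of all genes. RPT2 (0.38) and RPN11 (0.35) were at the high end, also by both pairs, with RPT2 at 0.36 and 0.40. In these differences the dye layout is the same on both sides.

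RPN4, the activator of the subunit genes, was above background in both dyes on all 8 arrays and stayed near 0. Its log2 ratios were 0.12 and 0.14 in AT22 over S288C (mean 0.13, z-score 0.53), or -0.01 as a mean with the second array turned. They were -0.19 and 0.13 in TAT12 over S288C, 0.01 and -0.01 in TAT12 over TTY23, and 0.06 and 0.07 in TAT12 over AT22. The means of the last 3 were -0.03, -0.00 and 0.07. The array measures its transcript, whereas the amount of RPN4 is known to be set largely by degradation of the protein. Transcripts of genes acting on RPN4 were read too: the activators HSF1, YAP1, PDR1 and PDR3, and UBR2 and MUB1, which act in its ubiquitination. None of these 6 was called in any comparison. In TAT12 over S288C their median was 0.22, beside 0.02 over all genes. There 5 of 6 were above 0 on both arrays, beside 25.4% of all genes, and YAP1 was at -0.14. However, MUB1 was the 1 gene of the 6 above background on both arrays there. In the indirect ratio of TTY23 over S288C the median was 0.18, and this ratio uses the same arrays of TAT12 over S288C. In it 6 of 6 were above 0 and 5 of 6 by both array pairs, beside 53.1% and 29.6% of all genes. In the other comparisons, as labelled, the median of the 6 lay between -0.04 and -0.01, and AT22 over S288C gave -0.08 with the array turned.

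Among the 47 genes read that work around the proteasome, 5 of 188 values were called over the 4 comparisons (2.66%), beside 4.87% of the values of all genes. Of 13 assembly chaperones and alternative caps, the 1 call on the probes with the genes' own systematic names was HSM3, a chaperone that escorts RPT1 and its partners into the base. In TAT12 over S288C its log2 ratios were 1.41 and 1.21, a mean of 1.31 or 2.48-fold (z-score 2.26), with both arrays above background. It lay further from 0 than any of the 33 subunits in any comparison. In TAT12 over TTY23 it gave 0.27 and 0.68 (z-score 1.58), and in TAT12 over AT22 -0.07 and 0.15 (mean 0.04). In AT22 over S288C it gave 0.40 and -0.45 as labelled (mean -0.02), with a mean of 0.43 when turned. Added to the mean of TAT12 over AT22, neither of these reaches the 1.31 measured directly, so the path by way of AT22 did not close. The indirect ratio of TTY23 over S288C was 0.83 (z-score 2.07). The median of the 13 genes in TAT12 over S288C was -0.03, so HSM3 lay far from the middle of its list. BLM10, an alternative cap of the core, had a second probe that was called up in TAT12 over S288C at 0.63 and 0.38 (mean 0.50, z-score 2.26) and in TAT12 over TTY23 at 0.34 and 0.23 (mean 0.28, z-score 2.16). It was above background on 1 array of the former swap and on neither of the latter. The first BLM10 probe gave 0.31 and 0.10 there with no call, and both probes lay above 0 on both arrays, so the calls depend on the probe.

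Of 12 genes for ubiquitin and its activating and conjugating enzymes, UBC4, a conjugating enzyme for abnormal proteins, was called down in TAT12 over S288C at -0.34 and -0.26 and in TTY23 over S288C, indirectly, at -0.42. Of 8 genes of the Cdc48 segregase, the ATPase complex that extracts ubiquitinated proteins, the cofactor DOA1 was called down in TAT12 over TTY23 (-0.22) and up in TAT12 over AT22 (0.12), and NPL4 up in TAT12 over AT22 (0.15). UBC4, DOA1 and NPL4 were above background on neither array where they were called. None of 8 ubiquitin shuttles and proteasome-bound ubiquitin enzymes was called, their medians running from -0.17 in AT22 over S288C as labelled, or -0.03 with the array turned, to 0.07 in TAT12 over TTY23.

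**Figure D4:**
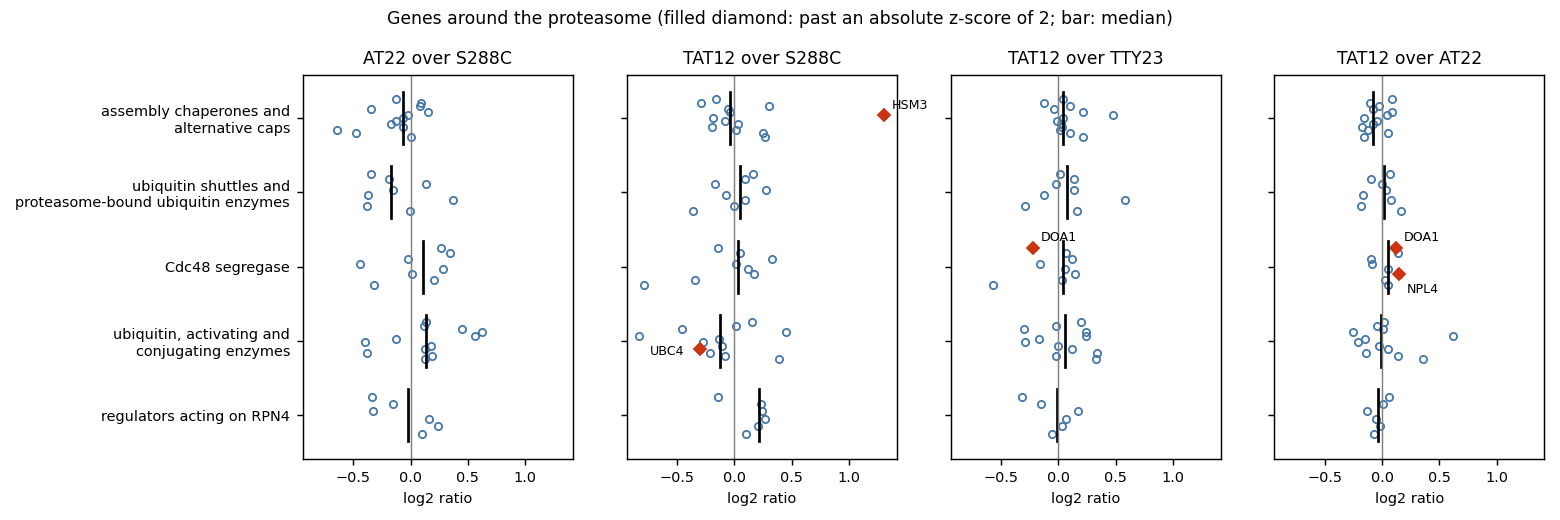
Log2 ratios (horizontal axis) of genes that assemble, feed or regulate the proteasome, in 5 lists (rows) and the 4 comparisons, with bars for list medians and filled diamonds for genes past an absolute z-score of 2. HSM3 at 1.31 in TAT12 over S288C lies apart from the other genes, and the list acting on RPN4 has its median at 0.22 in that comparison.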

How the data were processed

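RNA of 4 yeast strains was compared on spotted 50-mer arrays in 4 dye swaps of 2 arrays each. The authors deposited scanner intensity and local background for each spot, with no normalization. They also deposited 1 score per gene and comparison, a z-score made with genArise over both arrays (background and normalization steps are not given in the sources used here). These scores had medians of 0.11, 0.0052, -0.029 and -0.10, correlated at 0.77 to 0.85 with the log2 ratios from the scanner values, and served as an alternative. All 4 of their columns were used, and 0 were left aside.

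Intensities were background-corrected (normexp, offset 50) and loess-normalized within each array in limma 3.58.1 (R 4.3.3), with 320 empty and 64 control spots at weight 0. Duplicate spots were averaged (12672 spots, 6336 genes), the sign of each second array was reversed, and the mean of the pair was taken. A gene was above background where its mean lay over the 95th percentile of empty spots for each dye. Other settings are compared in the closing section. The steps from turning the arrays to the z-score, the loop and the limma fit were tested on simulated ratios. Their noise was independent between arrays, of the same SD for all genes, and held no dye effect. Background correction, loess normalization and the rule for genes above background were not tested in this way. Depth does not apply to arrays, and their number limits the precision. Dye swaps with a strain in common are not independent comparisons, and the sources used here do not give the number of RNA extracts per strain.

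Values per array are given for each gene past an absolute z-score of 2, the highest and lowest subunit of each comparison, PRE2, PRE3, PUP1, RPN11 and RPN4, and in the other lists for called genes; further values were chosen after they were seen. The members and the lists were chosen with earlier results of these data known. ADC17 was matched to no probe. RPT4, BLM10, UBI4 and CDC34 had a second probe, and the probe with the plain systematic name of the gene was used, the other being given where its call differed or for RPT4. Promoter and protein sequences were not analysed here.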

Additional observations from a re-analysis of the deposited data

How the results depend on the processing

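The median log2 ratio of the subunits stayed within 0.1 of 0 under every setting run. It was above 0 under every setting in TAT12 over TTY23, and in the other 3 comparisons its sign changed under at least 1 setting. It moved by more than the SD between the arrays of a swap in AT22 over S288C on the first array alone (-0.019) and over genes above background (0.093), in TAT12 over S288C with median centring (0.066), on the second array alone (-0.043) and over genes above background (-0.086), in TAT12 over TTY23 with median centring (0.045), on the first array alone (0.047) and over genes above background (0.075), and in TAT12 over AT22 on the first array alone (0.054).

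Counts of called subunits, 3, 1, 3 and 2 in the order of the text, changed more. Where no share of all genes is given for a setting, it was not taken. Such counts therefore cannot be read as particular to the subunits. Background correction left out gave 1 in TAT12 over TTY23 and 1 in TAT12 over AT22. The first array alone gave 0 in TAT12 over S288C and 0 in TAT12 over TTY23, and the second alone 1 in AT22 over S288C and 1 in TAT12 over TTY23. Turning the second array of AT22 over S288C gave 1 there. Least squares over the loop gave 1 in AT22 over S288C and 1 in TAT12 over AT22, and with that array turned 1 and 0, and 2 in TAT12 over S288C. Genes above background gave 1 in TAT12 over TTY23 and 1 in TAT12 over AT22. A threshold of 1 gave 6, 11, 11 and 9 (18.2%, 33.3%, 33.3% and 27.3% of the subunits, beside 29.2%, 30.8%, 29.0% and 30.1% of all genes). A fold change of 2 gave 0, 0, 0 and 0, beside 0.30%, 0.71%, 0.21% and 0.079% of all genes, and 200 neighbours gave 0 in TAT12 over S288C. The authors' z-scores gave 1 in AT22 over S288C (RPT2) and 1 in TAT12 over AT22 (RPN1). The cause of these changes was not tested, beyond fewer genes or a stricter rule where the setting is one. The limma count was 0 in both directions of that array. Over all 6336 genes it was also 0, except for 1 gene in TAT12 over TTY23 with the array turned. With the array turned, the lowest adjusted p in limma among the 34 genes was 0.094. At an unadjusted p of 0.05 the turned fit called 7, 2, 3 and 2 of them, beside 19.4%, 13.1%, 7.34% and 10.5% of all genes. As in the fit as labelled, the residual took no error from the swap with TTY23. The second RPT4 probe, an alternative added after seeing the data, changed no count. No paired analysis was possible because each comparison held 1 dye swap. In each comparison 13 to 17 of the 33 subunits were above background on both arrays, and 1 swap gave no error for any ratio.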

Other observations

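Averaging the arrays of a swap with their signs turned gives the strain ratio, and the distance of either array from that mean gives what follows the dye or the array instead. For the subunits this distance had an absolute median of 0.12, 0.08 and 0.13 on the log2 scale in TAT12 over S288C, TAT12 over TTY23 and TAT12 over AT22, beside 0.12, 0.14 and 0.06 for the strain ratio. It was the larger of both for 17, 10 and 20 of the 33 subunits. Scored against the 100 nearest genes in the same way, 1 subunit passed an absolute z-score of 2 in each of these comparisons, RPT2, beside 4.91%, 4.59% and 4.64% of all genes. In AT22 over S288C the distance is the size of the ratio with the second array turned, and which of both holds the strain is not settled.

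In the z-scores deposited by the authors, the subunits past 2 in absolute value were RPT2 in AT22 over S288C, SEM1 in TAT12 over S288C, PUP2 and SEM1 in TAT12 over TTY23, and RPN1 in TAT12 over AT22. Of these 5, the 3 called in the same comparison from the scanner values were RPT2 in AT22 over S288C and both of TAT12 over TTY23. The deposited calls were down in AT22 over S288C and in TAT12 over S288C, and up in TAT12 over AT22. TAT12 over TTY23 had 1 up and 1 down. In TAT12 over S288C the call from the scanner values was another subunit, RPN13, and it was up. The share of all genes past 2 in the deposited scores was not taken. RPN4 had deposited z-scores of 0.29, -0.21, 0.29 and 0.12.

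The second probe of RPT4 gave log2 ratios of 0.15 in AT22 over S288C, -0.06 in TAT12 over S288C, -0.06 in TAT12 over TTY23 and -0.10 in TAT12 over AT22, with no call, beside -0.12, -0.04, -0.03 and 0.09 for the first probe. The second probe of UBI4, a ubiquitin gene, gave -0.19 in AT22 over S288C as labelled against 0.13 for the first probe, and -0.18 against -0.45 with the array turned, with no call by either probe in any comparison. That of CDC34, a conjugating enzyme, gave -0.64 in TAT12 over S288C against -0.83, also with no call.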
